A study of Mus musculus with 2 samples.

Results

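The CCN matricellular family is a small set of secreted proteins that sit in the extracellular matrix and modulate signalling there. Its members were taken by gene symbol as Ccn1, Ccn2, Ccn3, Ccn4 and Ccn5, which made 5 of the 32285 genes in the deposited count tables. The data were 2 libraries of single lung cells from mice of genotype Lepr-CreERT2;Rosa26-tdtomato, 8 to 10 weeks old, 1 library after saline and 1 after bleomycin, a drug used to cause lung injury and fibrosis in mice. In both libraries, live cells positive for tdTomato and negative for CD45, EpCAM and CD31 had been sorted, so that the cells were lung mesenchyme in which Lepr-driven, inducible Cre had switched on the reporter. How many mice were pooled, the induction schedule and the interval after bleomycin were not given in the sources used here.

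After filtering, 8284 saline and 10001 bleomycin cells were analysed, with medians of 6762 and 11662 UMIs (unique molecular identifiers, counted transcripts) per barcode before filtering. Clustering, with the CCN genes kept out of the clustering genes, gave 13 clusters, of which 10 were counted as mesenchymal and held 8099 saline and 9622 bleomycin cells. In these cells the defining markers of the gated-out lineages were near 0 (Ptprc at 0.0680 and 0.169, Epcam at 0.170 and 0.284, Pecam1 at 1.45 and 0.599 CPM, which is UMIs scaled to a common library total, in saline and bleomycin), while Col1a1 was at 963 and 3809 CPM. Lepr itself was at 62.6 and 11.3 CPM. No tdTomato or Cre feature was among the genes, so reporter activity was not checked. The libraries shared 25 barcodes. With 1 library per treatment there was no replicate and no test. Each interval below is a 95% interval for counting error alone, and a difference between libraries cannot be told apart from a difference between animals or preparations.

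CCN proteins share a modular layout of an insulin-like growth factor binding module, a von Willebrand factor C module, a thrombospondin type 1 repeat and a C-terminal cystine knot. They bind integrins, proteoglycans and growth factors and are not classical growth factors themselves. Ccn1 (also Cyr61) and Ccn2 (also Ctgf) are induced by serum, mechanical load and YAP/TAZ activity, and Ccn2 is a widely used marker of fibrotic matrix. Ccn3 (also Nov) is known from vascular smooth muscle, Ccn4 (also Wisp1) as a Wnt-inducible gene, and Ccn5 (also Wisp2) lacks the C-terminal module.

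In the GENCODE annotation of GRCm38 (mm10), Ccn1 lay at chr3:145646976-145649981 on the minus strand, Ccn2 at chr10:24595442-24598683, Ccn3 at chr15:54745702-54754039, Ccn4 at chr15:66891320-66923201 and Ccn5 at chr2:163820861-163833146, the latter 4 on the plus strand. All 5 were annotated as protein coding. The longest coding sequence had 5 coding exons and 1137 bases in Ccn1, 5 and 1044 in Ccn2, 5 and 1062 in Ccn3, and 5 and 1101 in Ccn4. Ccn5 was the shortest, with 4 coding exons and 753 bases. A predicted gene on the opposite strand, Gm15270, overlapped Ccn2 and held 294 UMIs in saline and 472 in bleomycin, against 40913 and 67960 for Ccn2 over all barcodes.

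A RefSeq promoter was held for 1 of the 5 members, Ccn1. It is shown because Ccn1 is known both as a YAP/TAZ target and as an immediate early gene. The 250 bases before its start (GRCm38.p6, chr3:145649986-145650235, minus strand, written 5′ to 3′) carry in capitals the match to the TEAD motif CATTCC and the TATA box TATAAA.
Ccn1 promoter: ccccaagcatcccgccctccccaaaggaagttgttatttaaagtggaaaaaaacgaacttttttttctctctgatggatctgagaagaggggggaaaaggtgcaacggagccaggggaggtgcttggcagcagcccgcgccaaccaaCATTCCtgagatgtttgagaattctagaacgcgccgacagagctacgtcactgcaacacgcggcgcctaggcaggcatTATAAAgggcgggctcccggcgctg

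Searching both strands, CATTCC occurred once, starting 103 bases before the start, and 12.6% of the 32851 RefSeq promoter windows of 250 bases held it. TATAAA occurred once, starting 25 bases before the start, and 12.4% of windows held it. The AP-1 motif TGANTCA (6.75% of windows), the cyclic AMP response element TGACGTCA (1.55%) and the CArG box (1.47%) had no match in these 250 bases.

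Over all mesenchymal cells, the level of Ccn4 was 9.10 CPM in saline against 86.2 CPM after bleomycin, a ratio of 9.48 (8.69 to 10.4). It was the only member of the 5 to meet the size rule used throughout, a ratio of at least 2 in either direction, a level of 10 CPM or more where it was higher, and an interval clear of 1. By that rule 446 of 8018 genes were higher in bleomycin (5.56%) and 474 were lower (5.91%), so that 1 of 5 members called higher stands beside a background of 5.56%. Ccn1 was at 987 CPM in saline against 572 CPM after bleomycin, a ratio of 0.580 (0.573 to 0.586). Ccn2 was at 671 and 510 CPM (0.759), Ccn3 at 18.2 and 12.5 CPM (0.687) and Ccn5 at 138 and 121 CPM (0.877). The related gene Ccn6 had 2 UMIs in saline and 4 in bleomycin and could not be compared.

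These sums mix clusters that differed in number between the libraries. The 2 alveolar fibroblast-like clusters held 2548 and 3325 saline cells but 245 and 139 bleomycin cells, while the inflammatory fibroblast-like cluster held 101 and 4472 and the fibrotic fibroblast-like cluster 7 and 1692. With the bleomycin clusters weighted to the saline mixture, the ratio became 0.820 for Ccn1, 0.407 for Ccn2, 0.772 for Ccn3 and 3.85 for Ccn4. For Ccn5 it turned from below 1 to 1.56. The values within clusters are therefore given next for each member.

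The compared clusters were an alveolar one led by Slc7a10 and Mettl7a1, an alveolar one led by Tpm3-rs7 and Cxcl9, an adventitial one led by Aqp1 and Adh7, an adventitial one led by Pi16 and Ly6c1, and the inflammatory, peribronchial, smooth muscle and proliferating clusters. The Cxcl9-led cluster had an inflammatory marker and none of the alveolar markers among its 10 leading genes, so the alveolar clusters were never pooled. Its short name does not hold at resolution 1. There an alveolar cluster led by Tpm3-rs7 (2211 saline and 200 bleomycin cells) had no Cxcl9 among its 10 leading genes. A separate cluster led by Cxcl9 and Ifit3 (208 and 63 cells) was named inflammatory. The fibrotic cluster had too few saline cells to compare and is described in bleomycin alone. The peribronchial cluster had smooth muscle as its next best name. Its 10 leading genes, headed by Cnn1, held 4 peribronchial and 2 smooth muscle markers. At resolution 1 a peribronchial cluster led by Pappa2 and Aspn held 333 saline and 432 bleomycin cells. Beside it stood a cluster named smooth muscle and led by Cnn1 and Tnnt2, with 75 and 161 cells. The proliferating cluster had fibrotic fibroblast as its next best name. At resolution 1 its counterpart held the fibrotic marker Cthrc1 at 9.40 CPM in 52 saline cells and 389 CPM in 577 bleomycin cells. The part of such differences in make-up in the ratios within clusters was not tested. As a background, a cluster led by Sftpc, Scgb1a1 and Ager (125 saline and 192 bleomycin epithelial cells that passed the gate) is given beside low values.

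**Figure D1:**
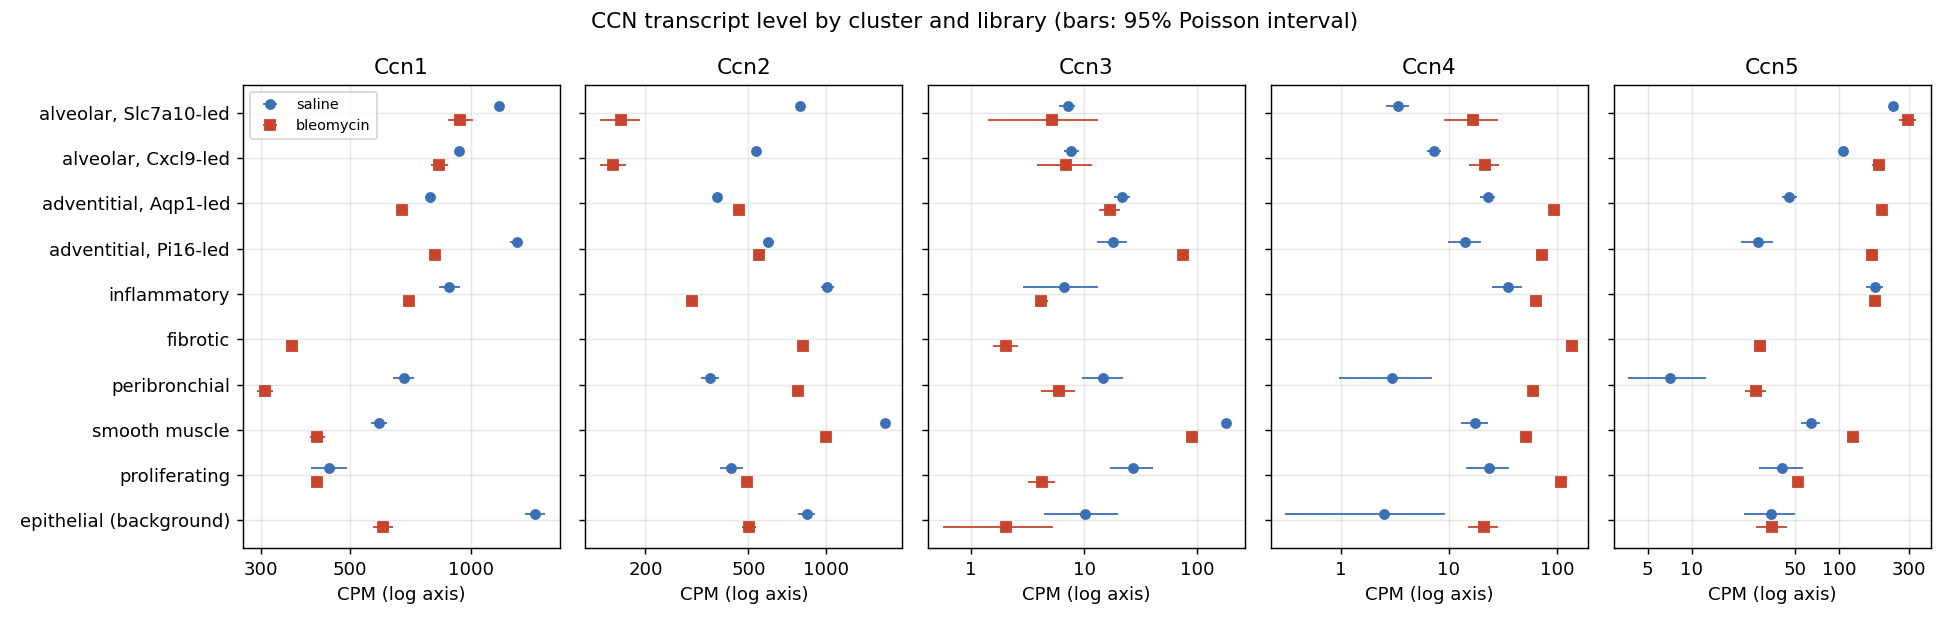
Level of each CCN gene (CPM, log axis) by cluster in saline (circles) and bleomycin (squares), with 95% Poisson intervals; the fibrotic cluster is shown for bleomycin only. Ccn3 stands highest in smooth muscle in both libraries, Ccn4 lies further right in bleomycin in every cluster plotted for both libraries, and Ccn2 lies far lower in bleomycin in both alveolar clusters.

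Ccn1, a ligand of several integrins, was broadly expressed, and its ratio was below 1 in all 8 compared mesenchymal clusters. In saline its order ran from the Pi16-led adventitial cluster (1299 CPM) through the Slc7a10-led (1173) and Cxcl9-led (936) alveolar clusters, the inflammatory (884), Aqp1-led adventitial (790), peribronchial (681) and smooth muscle (591) clusters to proliferating cells (444). Of these neighbours, the intervals overlapped only between the Cxcl9-led and the inflammatory cluster. In bleomycin the Slc7a10-led (942), Cxcl9-led (835) and Pi16-led (814) clusters headed the order with overlapping intervals between neighbours. The fibrotic (358 CPM) and peribronchial (308 CPM) clusters were the lowest of the mesenchymal clusters.

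The peribronchial cluster, which holds Hhip- and Aspn-expressing cells, was the only one in which Ccn1 met the size rule, at 681 CPM in saline against 308 CPM after bleomycin (ratio 0.452, 0.420 to 0.488), in a cluster where 6.71% of genes were called lower. Its ratio was 0.689, and no longer met the rule, among cells low in immediate early genes. The ratios of the other 7 clusters lay between 0.627 in the Pi16-led adventitial and 0.931 in the proliferating cluster. The adventitial clusters had no member called lower, beside 3.27% of genes in the Aqp1-led and 4.11% in the Pi16-led cluster. The epithelial cluster itself held Ccn1 at 1445 CPM in saline against 604 CPM after bleomycin, beside 6.05% of its genes called lower. Its make-up differed between the libraries. At resolution 1 its Ager-led cells (82 in saline and 56 in bleomycin) were at 1921 and 1690 CPM. Its Scgb1a1-led cells (43 and 133) were at 785 and 278 CPM.

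Immediate early genes, which respond within minutes to stimulation and also to tissue dissociation, were lower together with Ccn1 over all mesenchymal cells, though not within every cluster. Their summed level over 24 genes was 33296 CPM in saline against 22653 CPM after bleomycin, and 4 of the 24 were lower by the size rule (Jun, Egr1, Atf3 and Gadd45b) with none higher, beside 5.91% of all genes called lower. At the saline mixture these 4 were at 0.918, 0.737, 0.916 and 0.696, all short of the rule. Their median log2 ratio was -0.39, or -0.07 at the saline mixture, against -0.03 over all genes. Across the 21 cluster and library profiles of at least 50 cells, which share libraries and depth, log2 Ccn1 and the log2 sum had a Pearson correlation of 0.58, while for Ccn2 it was -0.10. For Ccn3, Ccn4 and Ccn5 it was 0.26, -0.47 and 0.46, so a correlation of this order was not particular to Ccn1. In 3 of the 8 clusters the sum was higher in bleomycin while Ccn1 was lower, at 31477 and 34255 CPM in the Cxcl9-led, 38490 and 38817 in the Slc7a10-led and 24922 and 25715 in the inflammatory cluster. Within saline, Ccn1 was at 654 CPM in cells at or below the pooled median share of immediate early UMIs and at 1160 CPM in cells above it. Within bleomycin these values were 457 and 900 CPM. Among cells at or below the limit the Ccn1 ratio was 0.699 over all mesenchymal cells. The part of the dissociation response in the Ccn1 difference was not tested.

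**Figure D2:**
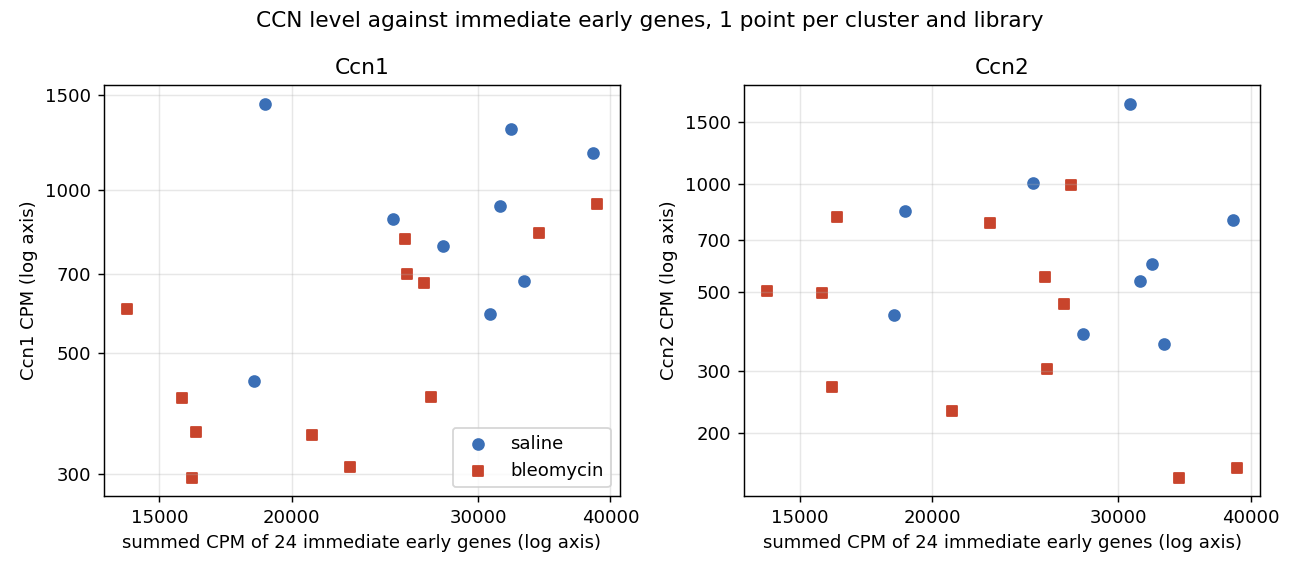
Level of Ccn1 (left) and Ccn2 (right) in CPM against the summed CPM of 24 immediate early genes, all axes log, with 1 point for each of 21 clusters by library of at least 50 cells. Profiles with a higher sum had more Ccn1 (Pearson 0.58), with no such trend for Ccn2 (-0.10).

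Ccn2, known for its place downstream of TGF-beta and YAP/TAZ, differed in direction between clusters. In the Slc7a10-led alveolar cluster it was at 794 CPM in saline against 160 CPM after bleomycin (ratio 0.202, 0.168 to 0.241), where 1.91% of genes were called lower. In the Cxcl9-led alveolar cluster it was at 537 and 150 CPM (0.280, 0.249 to 0.314), beside 1.13% called lower, and at 0.500 among cells low in immediate early genes, where it still met the rule. In the inflammatory cluster it was at 1009 CPM in 101 saline cells and 302 CPM in 4472 bleomycin cells (0.299, 0.282 to 0.318), beside 2.68% called lower. The ratio was thus under 0.3 in each of these 3 clusters. At resolution 1 the inflammatory class was divided otherwise. A cluster led by Cxcl9 and Ifit3 held Ccn2 at 621 CPM in 208 saline cells and 477 CPM in 63 bleomycin cells. A Saa3-led one, with 1384 bleomycin cells and too few saline cells, was at 197 CPM. The unnamed Nnat-led cluster was at 1027 CPM in 98 saline cells and 349 CPM in 1810 bleomycin cells. The part of make-up in the inflammatory ratio was not tested.

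The peribronchial cluster went the other way. There Ccn2 was at 355 CPM in saline against 779 CPM after bleomycin (ratio 2.19, 2.01 to 2.39), beside 6.45% of genes called higher, while Ccn1 in the same cells was called lower. The median depth of this cluster also differed, at 3377 UMIs per cell in saline and 8957 in bleomycin. With every cell thinned to 2000 UMIs, 28.6% (24.2 to 33.3) of its saline cells and 45.4% (41.3 to 49.5) of its bleomycin cells had a Ccn2 UMI, so the direction was the same at equal depth. Without thinning these shares were 37.2% and 66.0%, and thinning left out 11 saline and 6 bleomycin cells. The remaining ratios, which did not meet the rule, were 0.591 in smooth muscle, 0.920 and 1.22 in the Pi16-led and Aqp1-led adventitial clusters and 1.15 in proliferating cells.

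By level, smooth muscle headed Ccn2 in both libraries among the mesenchymal clusters of at least 50 cells at the clustering resolution of 0.5, at 1685 CPM in saline against 996 CPM after bleomycin. In saline it was followed by the inflammatory (1009) and Slc7a10-led (794) clusters and ended with the Aqp1-led adventitial (379) and peribronchial (355) clusters, whose intervals overlapped. In bleomycin it was followed by the fibrotic (811) and peribronchial (779) clusters, whose intervals overlapped, and ended with the alveolar clusters, whose intervals also overlapped. The fibrotic cluster held 2.68 times (2.63 to 2.73) the level of the inflammatory cluster and 5.06 times (4.24 to 6.09) that of the Slc7a10-led cluster of the same library.

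**Figure D3:**
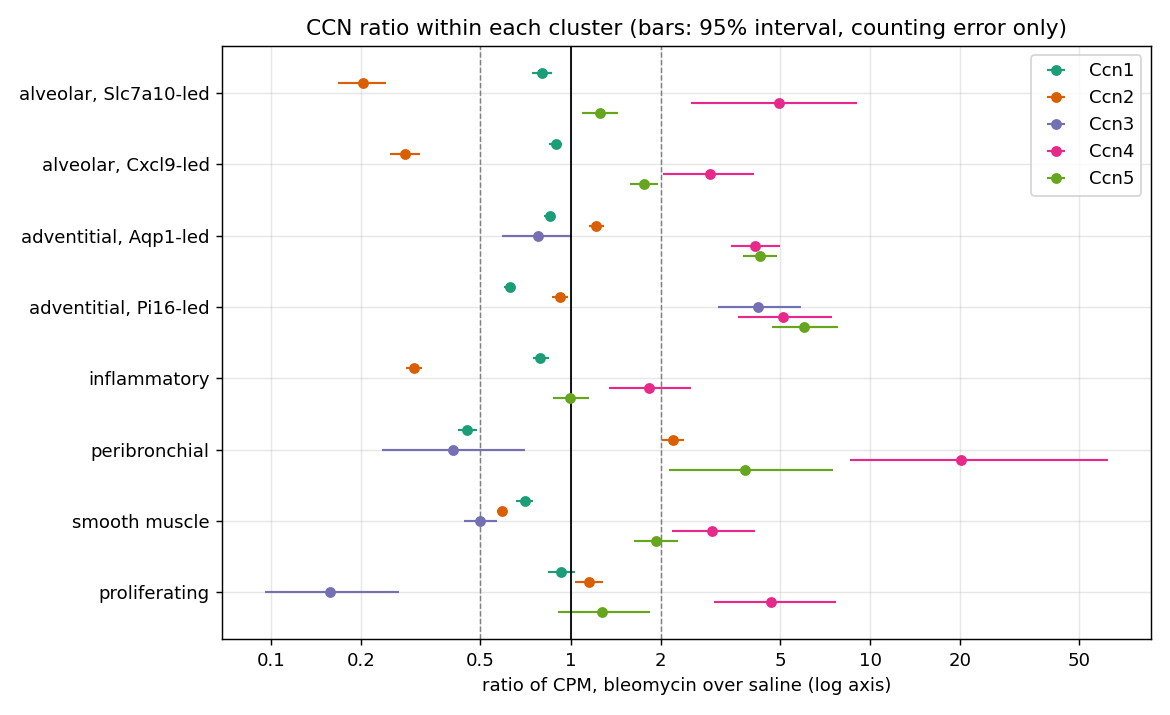
Ratio of CPM in bleomycin over saline (log axis) for each CCN gene within each compared cluster, with 95% intervals; the solid line marks 1 and the dashed lines 0.5 and 2, and genes under 10 CPM in both libraries are left out. Ccn1 lies left of 1 and Ccn4 right of 1 in all 8 clusters, while Ccn2 and Ccn3 lie on both sides.

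Ccn3, which is known to restrain smooth muscle growth, was found mainly in contractile and adventitial cells. Smooth muscle held 47.7% of its mesenchymal UMIs in saline and 29.1% in bleomycin. Its level there was 182 CPM in saline, which was 25.4 times (21.1 to 30.7) that of the Slc7a10-led cluster, and 90.8 CPM in bleomycin. That ratio of 0.499 (0.440 to 0.567), beside 2.33% of genes called lower, lay at the threshold and missed it under 3 alternatives, at 0.503 to 0.551.

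The Pi16-led adventitial cluster was the exception, with Ccn3 at 17.9 CPM in saline against 75.9 CPM after bleomycin (ratio 4.23, 3.10 to 5.90), beside 4.33% called higher. It held 39.5% of all mesenchymal Ccn3 UMIs in bleomycin. At 2000 UMIs per cell, 3.16% (1.64 to 5.45) of its saline cells and 11.1% (8.92 to 13.6) of its bleomycin cells had a Ccn3 UMI, with 62 and 59 shallower cells left out. Without thinning the shares were 5.88% and 26.7%. In the Aqp1-led adventitial cluster the values were 21.7 and 16.9 CPM, with an interval that included 1 (0.592 to 1.01). That direction did not hold at resolution 1, where the adventitial cells were divided otherwise. There 970 saline cells of the Aqp1-led cluster held Ccn3 at 20.02 CPM (17.01 to 23.4). Its 223 bleomycin cells were at 29.6 CPM (22.4 to 38.2), so the intervals overlapped. The Pi16-led cluster of that resolution, with 484 saline and 1109 bleomycin cells, was at 16.6 and 56.2 CPM.

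Ccn3 was also called lower in proliferating cells, at 27.0 CPM in 52 saline cells and 4.24 CPM in 576 bleomycin cells (ratio 0.157, beside 8.21% called lower), and in peribronchial cells, at 14.9 and 5.99 CPM (0.403, beside 6.71%). The proliferating value in saline rested on 23 UMIs and the peribronchial one on 25. Both alveolar clusters were under 10 CPM in both libraries, where the epithelial background was at 10.2 CPM, on 8 UMIs in 3 cells, in saline against 2.06 CPM after bleomycin.

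Ccn4, a matricellular protein known from fibrosis and bone repair, had a ratio above 1 in all 8 compared clusters and met the size rule in 7. The widest ratio was in the peribronchial cluster, where it was at 2.97 CPM in saline, on 5 UMIs, and 59.9 CPM in bleomycin (20.2, 8.56 to 62.5), beside 6.45% of genes called higher. Among cells low in immediate early genes that ratio was 13.2. At 2000 UMIs per cell, 0 of 395 saline cells, which allows a share of up to 0.759% (3 counts of the total), and 9.22% (6.998 to 11.9) of 586 bleomycin cells of this cluster had a Ccn4 UMI. Unthinned, these shares were 1.23% and 30.4%. In the Pi16-led adventitial cluster it was at 14.2 and 72.7 CPM (5.12, beside 4.33%), and in the Aqp1-led one at 22.8 and 94.3 CPM (4.13, beside 2.91%). Proliferating cells were at 23.5 CPM in saline, on 20 UMIs, and 110 CPM in bleomycin (4.67, beside 3.81%). Smooth muscle was at 17.4 and 51.8 CPM (2.98, beside 4.44%).

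The alveolar clusters were also called, at 3.39 and 16.8 CPM in the Slc7a10-led (4.96, beside 2.34%) and 7.32 and 21.4 CPM in the Cxcl9-led cluster (2.92, beside 1.5%). The epithelial background, however, was at 2.54 CPM in saline against 21.1 CPM (15.1 to 28.6) after bleomycin, beside 9.03% of its genes called higher. At 2000 UMIs per cell the shares with a Ccn4 UMI in bleomycin were 2.36% and 2.07% in the alveolar clusters and 3.11% (1.02 to 7.10) in the epithelial one, at median depths of 5740, 7507 and 7562 UMIs. Unthinned they were 6.47%, 12.2% and 7.81%. A further cluster led by immunoglobulin genes, with 70 bleomycin cells and Ptprc at 187 CPM, held Ccn4 at 45.5 CPM (31.7 to 63.3) and Col1a1 at 2644 CPM, with a Ccn4 UMI in 5.45% (1.14 to 15.1) of its cells at 2000 UMIs. Its level overlaps those of the smooth muscle and peribronchial clusters, and the part of free RNA or doublets in them was not tested. The epithelial Ccn4 UMIs in bleomycin were unevenly spread, with 24 of the 41 in 3 cells. At resolution 1, 3 cells with 22 of them joined a fibroblast cluster led by Nnat, while the Ager-led epithelial cells held 0 UMIs (0 to 8.35 CPM) and the Scgb1a1-led ones 13.5 CPM (8.12 to 21.1). The alveolar intervals in bleomycin, 8.95 to 28.7 and 15.5 to 28.8 CPM, overlap the Scgb1a1-led interval and lie above the Ager-led one. Whether Ccn4 in the alveolar clusters is above free RNA therefore cannot be told from these counts. In the inflammatory cluster Ccn4 was at 35.2 CPM in saline, on 42 UMIs, and 64.1 CPM in bleomycin (1.82, 1.35 to 2.53), which did not meet the rule, in a cluster where 3.93% of genes were called higher. It met it under a stricter cell filter (2.02) and with CCN genes among the clustering genes (2.40). The ratio of 5.00 at resolution 1 set different cells against each other. Of that class, 208 saline and 63 bleomycin cells lay in the cluster led by Cxcl9 and Ifit3, which is not the Cxcl9-led alveolar cluster. A Saa3-led one held 2 and 1384. Within the cluster led by Cxcl9 and Ifit3, Ccn4 was at 9.78 and 88.4 CPM. In the unnamed Nnat-led cluster, with 98 saline and 1810 bleomycin cells, it was at 34.3 and 75.8 CPM.

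In bleomycin the order of Ccn4 ran from the fibrotic cluster (138 CPM) through proliferating (110) and Aqp1-led adventitial cells (94.3) to the alveolar and epithelial clusters. The fibrotic level was 2.15 times (2.05 to 2.25) that of the inflammatory and 2.66 times (2.35 to 3.02) that of the smooth muscle cluster. Over all mesenchymal cells at 2000 UMIs, 1.21% (0.979 to 1.47) of saline and 12.01% (11.4 to 12.7) of bleomycin cells had a Ccn4 UMI, with 144 and 153 cells left out, and 5.10% and 44.3% had it without thinning. Within bleomycin, 51.9% of cells with a Ccn4 UMI also had a Ccn2 UMI, against 34.9% of cells without, at equal depth. These shares pool mesenchymal clusters that differ in both genes. The fibrotic cluster held Ccn2 at 811 and Ccn4 at 138 CPM, and the Slc7a10-led cluster held them at 160 and 16.8 CPM. The part of cluster make-up in the difference was not tested.

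Ccn5, the member without the C-terminal module, had its highest level among clusters of at least 50 cells in the Slc7a10-led alveolar cluster in both libraries, at 233 CPM in saline against 293 CPM after bleomycin (ratio 1.26). A smaller unnamed cluster led by Rsad2 and Ifit3, not compared, was at 279 CPM (219 to 351) in 35 saline cells and 89.7 CPM in 39 bleomycin cells. In saline the Slc7a10-led level was 8.35 times (6.56 to 10.8) the level of the Pi16-led adventitial cluster. Both adventitial clusters were called higher, at 28.0 and 168 CPM in the Pi16-led (6.01, 4.70 to 7.80, beside 4.33%) and 46.1 and 197 CPM in the Aqp1-led cluster (4.28, 3.76 to 4.88, beside 2.91%). At 2000 UMIs per cell, 3.68% (2.03 to 6.104) of saline and 20.03% (17.2 to 23.1) of bleomycin cells of the Pi16-led cluster had a Ccn5 UMI, and unthinned 8.14% and 45.4%. The direction was therefore the same in CPM and at equal depth.

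The peribronchial cluster was called higher as well, at 7.13 and 27.2 CPM (3.82, beside 6.45%), while the epithelial cells were at 34.3 and 35.0 CPM. That background too was uneven, with 27 saline UMIs in 11 cells, and at resolution 1 the Ager-led epithelial cells were at 4.36 CPM in saline against 24.9 CPM after bleomycin, and the Scgb1a1-led ones at 75.8 and 25.6 CPM. The mesothelial-like cluster was at 9.05 and 14.5 CPM. The peribronchial level is within the range of these backgrounds, and no change of expression is read from the call. At 2000 UMIs per cell 1.27% and 2.90% of peribronchial cells had a Ccn5 UMI, against 0.862% and 4.97% of epithelial cells. Unthinned these were 1.72% and 12.8% against 8.80% and 9.38%. Smooth muscle was at 64.3 and 124 CPM (1.92), the Cxcl9-led alveolar cluster at 106 and 187 CPM (1.76), proliferating cells at 41.1 and 52.5 CPM (1.28) and the inflammatory cluster at 175 in both libraries (0.999), and none of these met the rule. In bleomycin the fibrotic cluster held 29.3 CPM, within the same range, and the inflammatory cluster 5.97 times (5.57 to 6.41) as much.

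At the finer clustering resolution of 1, the fibrotic cells of the bleomycin library fell into a cluster led by Spp1 (1830 cells) and a cluster led by Cthrc1 and Col8a1 (472 cells). Ccn2 was at 558 CPM in the former and 1286 CPM in the latter, 2.30 times (2.25 to 2.36) as high. Ccn4 was at 107 and 172 CPM, 1.60 times (1.51 to 1.70) as high. Ccn5 ran the other way, at 62.6 and 13.1 CPM, and was 4.79 times (4.00 to 5.78) as high in the Spp1-led cluster, and Ccn1 was at 429 and 324 CPM. The Ccn2 level of the Cthrc1-led cluster was above the 1009 CPM of the Myh11-led smooth muscle cluster at this resolution. Ccn3 did not differ beyond its interval (0.402 to 1.25). These clusters come from the same library and are not replicates of a condition. An alveolar cluster led by Ces1d, with 431 bleomycin cells at this resolution, held Ccn4 at 40.4 CPM (34.4 to 47.2), above both epithelial clusters of that resolution. Its interval overlapped those of the mesothelial cluster (40.7 CPM, 31.7 to 51.4) and the immunoglobulin-led cluster (45.5 CPM, 31.7 to 63.3).

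**Figure D4:**
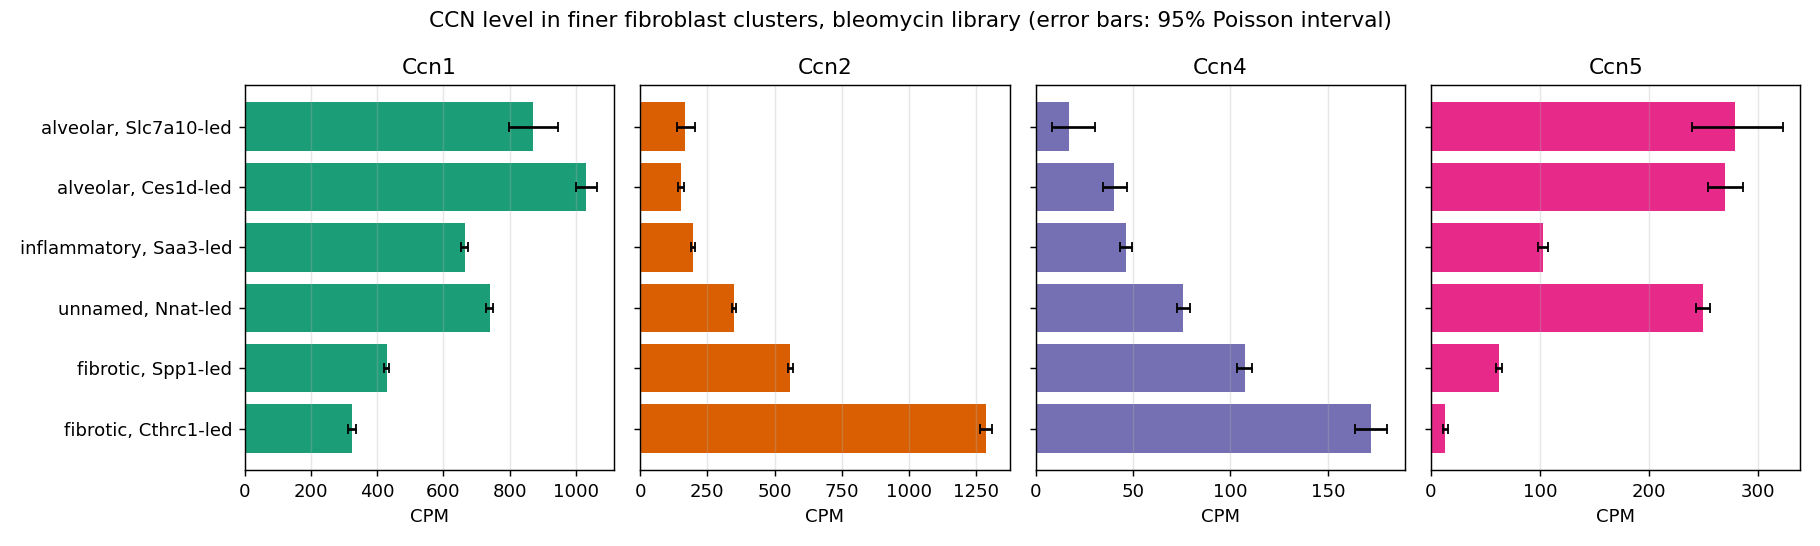
Level (CPM, linear axis from 0, each gene on its own scale) of 4 CCN genes in 6 fibroblast clusters of the bleomycin library at resolution 1, with 95% Poisson intervals. Ccn2 and Ccn4 are highest in the Cthrc1-led fibrotic cluster (1286 and 172 CPM), where Ccn5 is lowest (13.1 CPM).

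Gene lists around the family were counted by the same rule over all mesenchymal cells. Of 17 measured YAP and TAZ target genes, other than the members, 3 were higher (Ccdc80, ratio 4.93; Dock5, 3.72; Axl, 2.59) and 2 lower (F3, 0.462; Igfbp3, 0.197), beside 5.56% and 5.91% of all genes, with a median log2 ratio of -0.09. At the saline mixture the higher genes were at 1.80, 1.11 and 1.28, all under 2, and the lower ones at 0.502 and 0.201. None of 17 measured Hippo pathway and TEAD genes met the rule in either direction, with Yap1 at 0.845 and Wwtr1, which encodes TAZ, at 0.874. Among 19 measured genes of the TGF-beta response, 7 met the rule upwards and none downwards, beside 5.56% and 5.91% of all genes, with a median log2 ratio of 0.71. The 4 largest were Inhba (16.3), an activin subunit, Ltbp2 (9.66), Postn (7.45) and Fn1 (5.67), which encode matrix proteins. At the saline mixture that median was 0.37, Inhba was at 2.34, and Tgfb1 (3.38 as summed), Il11 (4.76) and Col1a1 (3.95) were under 2, at 1.38, 1.14 and 1.65.

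Of 18 SRF and MRTF target genes, which serve the contractile cytoskeleton, 2 were higher (Itga5 at 2.76 and Fhl2 at 2.56) and none lower. Beside them, 5.56% of all genes were called higher and 5.91% lower. The same shares apply to the Wnt, receptor and heat shock counts that follow, and to the Hippo count above. At the saline mixture both were under 2, Itga5 at 1.17 and Fhl2, which turned direction, at 0.837. Of 6 measured Wnt beta-catenin targets none met the rule, with a median log2 ratio of -0.54, or 0.11 at the saline mixture. Of 8 measured CCN receptors and co-receptors 1 was higher, the integrin subunit Itga5. Of 10 heat shock genes 1 was lower, Hspa1b (0.374, or 0.552 at the saline mixture, short of the rule). In the peribronchial cluster, where Ccn2 and Ccn4 were called higher, 8 of 19 genes of the TGF-beta list were called higher and 1 lower, beside 6.45% and 6.71% of all genes, and 5 of 19 YAP and TAZ targets were higher and 2 lower. In the Slc7a10-led alveolar cluster, where Ccn2 was called lower, these counts were 2 higher and 1 lower of 14, and 1 higher and 3 lower of 13. Beside them, 2.34% of all genes were called higher and 1.91% lower. Ccn2 was also called lower in the Cxcl9-led and inflammatory clusters. In the former the counts were 3 higher and 0 lower of 16, and 0 and 1 of 14, beside 1.5% and 1.13% of all genes. In the latter they were 3 higher and 2 lower of 18, and 0 and 3 of 16, beside 3.93% and 2.68%. In the Aqp1-led and Pi16-led adventitial clusters, where Ccn2 met the rule in neither direction, 8 of 18 and 8 of 19 genes of the TGF-beta list were called higher and 0 and 1 lower, beside 2.91% and 4.33% of all genes called higher.

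The genes most like each member over the 21 profiles, by Pearson correlation of log2(CPM + 10) among 5271 genes, were led by Acvrl1 for Ccn1 (0.859), 2310022B05Rik for Ccn2 (0.718), Gpc6 for Ccn3 (0.903), C1qtnf6 for Ccn4 (0.922) and Nr1h3 for Ccn5 (0.917). The next for Ccn1 were Dlc1, Akap12, Selenbp1 and Thbd, and for Ccn2 Romo1, Cops9, Gm11627 and Fstl3. For Ccn3 they were Aoc3, Smoc1, Ntf3 and Slc11a1, for Ccn4 Eef1g, Fkbp10, Eln and Col5a2, and for Ccn5 Grk5, Vstm4, Gpx3 and Tspan9. Among the members themselves the furthest from 0 was Ccn1 with Ccn4 (-0.64), and Ccn2 with Ccn4 stood at 0.00. The profiles share libraries, depth and the change in mixture, so these values describe likeness only.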

How the data were processed

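Whole-number UMI counts per gene and cell barcode were deposited by the authors as 10x matrices (Single Cell 3′ V3, per the labels' protocols), made with Cell Ranger 6.1.2 on mm10, per the submitters' processing notes. Totals were 60937359 UMIs (saline) and 134732429 (bleomycin). Cells with at least 500 genes and at most 10% mitochondrial UMIs were kept. Scrublet called 66 saline doublets (0.790%) and 0 in bleomycin, where the caller therefore did not work. Cells were clustered in scanpy 1.11.5 (2000 variable genes without CCN genes, 30 components, 15 neighbours, Leiden resolution 0.5) and named by 19 marker lists. UMIs were summed per cluster and library. CPM intervals were exact Poisson, ratios conditional binomial and shares Clopper-Pearson (scipy 1.17.1), after thinning to 2000 UMIs where stated. The size rule was tested on simulated data. The clusters compared had at least 50 cells in each library. GENCODE vM21 matched 32158 of 32285 identifiers.

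The members and lists were chosen with earlier results of these data known. The text names every member, the 5 genes most like each, and up to 4 genes per direction of each list that met the size rule; Yap1 and Wwtr1 are named for their role. Alternatives were a stricter filter, other scaling, doublet handling, equal cell weight, no level filter, the saline mixture, cells low in immediate early genes, clusters left out, another resolution and CCN genes among the clustering genes.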

Additional observations from a re-analysis of the deposited data

Results flagged for a closer look

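Ccn2 met the size rule in opposite directions in different clusters. Its ratio of bleomycin over saline was 0.280 in the Cxcl9-led alveolar, 0.202 in the Slc7a10-led alveolar and 0.299 in the inflammatory cluster, and 2.19 in the peribronchial cluster. Ccn3 did so too, with ratios of 0.499 in smooth muscle, 0.403 in peribronchial and 0.157 in proliferating cells, and 4.23 in the Pi16-led adventitial cluster. With 1 library per treatment the difference between clusters was not tested.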

How the results depend on the processing

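No paired analysis was possible because each treatment had 1 library. Over all mesenchymal cells no member ratio that met the size rule changed direction. Among the listed genes that met it, Fhl2 turned from 2.56 to 0.837 at the saline mixture. With median-of-ratios size factors the ratio was 0.592 for Ccn1 and 0.776 for Ccn2. With every cell weighing the same it was 0.613 for Ccn1, 0.713 for Ccn2, 1.02 for Ccn3 and 0.912 for Ccn5. At the saline mixture it was 0.820, 0.407, 0.772, 3.85 and 1.56 for Ccn1 to Ccn5. Among cells low in immediate early genes it was 0.699, 0.962, 0.404, 6.49 and 0.941. Without proliferating cells it was 0.593 for Ccn1, 0.745 for Ccn3 and 0.924 for Ccn5, and without smooth muscle 0.789 for Ccn2, 0.924 for Ccn3 and 0.853 for Ccn5. The cause of these shifts was not tested. Without the level filter 1753 genes were higher and 1904 lower, against 446 and 474, since more genes could be called, and the lists then had 1 higher Hippo gene, 3 higher and 1 lower Wnt targets and 2 higher receptors. At equal cell weight 1 YAP and TAZ target was lower and 1 Wnt target higher. Of 146 values within classes under the alternatives, 142 stayed on the same side of 1 and 138 kept the call; Ccn5 in smooth muscle met the rule at 2.08 without the highest doublet scores. The 4 that changed side were all Ccn5 in the inflammatory cluster, from 1.01 to 1.46. That ratio was 0.625 at resolution 1, where most saline and most bleomycin cells of that class lay in different clusters. The class values pooled the adventitial clusters, so a turn within either is outside this count. Taken alone, the Aqp1-led cluster had ratios of 1.22 for Ccn2 and 0.776 for Ccn3. Its counterpart at resolution 1 ran the other way for both. Ccn2 fell there from 405 CPM after saline to 351 CPM after bleomycin, and Ccn3 rose from 20.02 to 29.6 CPM. The Slc7a10-led and proliferating clusters had too few cells in a library to compare among cells low in immediate early genes, as had the proliferating cluster under the stricter filter. Depth limits Ccn3 and Ccn4 in saline, where many clusters held under 50 UMIs.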
